A study of Mus musculus with 2 samples.

Results

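Droplet barcodes with many UMIs (unique molecular identifiers, which count captured RNA molecules) were divided by their share of mitochondrial RNA, in 2 single-cell libraries of mouse liver. Barcodes of at least 1000 UMIs entered. Those with at least 6% of UMIs on the 13 genes of the mitochondrial genome (symbols starting mt-) were called cytoplasm-rich, and those with at most 2% were called nucleus-like. The cytoplasm-rich set held 265 barcodes of the control library and 63 from the mouse whose glutamine synthetase gene was targeted for deletion (GS_KO). The nucleus-like set held 339 and 802. Together they make 1469 of the 3537 large barcodes, and of 341974 barcodes in all.

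Both mice carried floxed alleles of Glul, the gene for glutamine synthetase (Glul f/f), bore no tumours and were infected at 11 weeks of age. The control mouse was given AAV8-GFP and the GS_KO mouse AAV8-Cre, where AAV8 is an adeno-associated virus that reaches mainly hepatocytes. The sources used here do not give the promoter in front of Cre. Each condition is 1 mouse and 1 library. Livers were digested 2 weeks after infection with collagenase II at 0.3 mg/mL, and hepatocytes plus purified non-parenchymal cells were loaded. The labels call the assay single-cell in places and single-nucleus in others, and what entered the droplets is not settled by them.

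Mitochondrial transcripts are made and kept inside mitochondria, which lie in the cytoplasm, so an intact nucleus washed free of cytoplasm carries few of them. Malat1 is a long noncoding RNA that stays in nuclear speckles and is often used as a sign of nuclear RNA. Unspliced transcripts of genes with long introns are also nuclear, whereas spliced mRNAs of short, highly expressed genes, such as those for ribosomal and plasma proteins, collect in the cytoplasm, where they are translated. Hepatocytes devote much of their cytoplasmic mRNA to proteins they secrete into blood.

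All barcodes together held 61635695 control and 57973740 GS_KO UMIs, and the large barcodes held a small part of it. The labels state at least 10000 cells, against 341974 barcodes deposited and 3537 of at least 1000 UMIs, and the sources used here do not say how barcodes were selected. The libraries had 8108 barcode sequences in common, of which 1 was a large barcode in these sets. The 4 sums compared below differ in depth. They held 282556 UMIs off the mt- genes in control cytoplasm-rich barcodes, 479622 in control nucleus-like, 67020 in GS_KO cytoplasm-rich and 1146592 in GS_KO nucleus-like barcodes. Levels are counts per 1000000 UMIs of these sums (CPM), so a higher share of some RNAs lowers the share of others. With 1 library per condition, and sets divided on a share of the same UMIs, no test was possible and p-values are left out. The 95% intervals (exact Poisson for levels, conditional Poisson for ratios, Clopper-Pearson for shares) cover counting error only, not the difference between mice or library preparations.

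The share of large barcodes in each set differed between the libraries. Cytoplasm-rich barcodes made up 15.6% (13.9 to 17.4) of 1703 large control barcodes and 3.44% (2.65 to 4.37) of 1834 large GS_KO barcodes. Nucleus-like barcodes made up 19.9% (18.0 to 21.9) and 43.7% (41.4 to 46.0). The rest, 1099 and 969 barcodes, lay between the limits. Mitochondrial share was a continuum with no gap: the median over all large barcodes was 3.18% in control and 2.15% in GS_KO barcodes. Cytoplasm-rich barcodes were the smaller ones, with a median of 1099 and 1086 UMIs, against 1359 and 1305 UMIs in nucleus-like barcodes. At an equal depth of 1000 UMIs they also held fewer genes, with medians of 619 and 601 against 699 and 695.

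The rule set the mitochondrial share itself, and its values only describe the sets. The median share was 7.67% in control and 6.61% in GS_KO cytoplasm-rich barcodes, and 1.59% and 1.52% in nucleus-like barcodes. The marker mt-Cytb, a subunit of respiratory complex III, took 1.10% and 0.697% of all UMIs in cytoplasm-rich barcodes, against 0.168% and 0.146% in nucleus-like ones. The complex I subunit mt-Nd1 took 0.611% and 0.632%, against 0.121% and 0.123%. Just inside the upper limit, between 6% and 6.5%, lay 44 control and 25 GS_KO barcodes, and just outside it, between 5.5% and 6%, lay 51 and 23. Just inside the lower limit, between 1.5% and 2%, lay 205 and 418, and just outside it, between 2% and 2.5%, lay 228 and 323. The median Malat1 share was 1.47% just inside and 1.53% just outside the upper limit in control, and 2.16% and 2.07% in GS_KO barcodes.

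Malat1 (chr19:5795690-5802672, minus strand, mm10) was not used to divide the barcodes, although it comes from the same UMIs. It took a median of 0.836% of non-mt UMIs in control and 1.35% in GS_KO cytoplasm-rich barcodes, against 2.44% and 4.33% in nucleus-like barcodes. The ranges of the sets overlapped, but few barcodes of one set reached the middle of the other: 5 of the 265 control cytoplasm-rich barcodes reached the nucleus-like median, and none of the 63 GS_KO ones did. In the other direction 1.47% of control and 1.87% of GS_KO nucleus-like barcodes lay at or below the cytoplasm-rich median. Over all large barcodes, mitochondrial share and Malat1 share had a Spearman rho of -0.54 in control and -0.50 in GS_KO barcodes. Both are shares of the same barcode, and mitochondrial share also went with total UMIs (rho -0.33 and -0.32). The direction of Malat1 went with the names of the sets, which are the ends of a range.

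**Figure D1:**
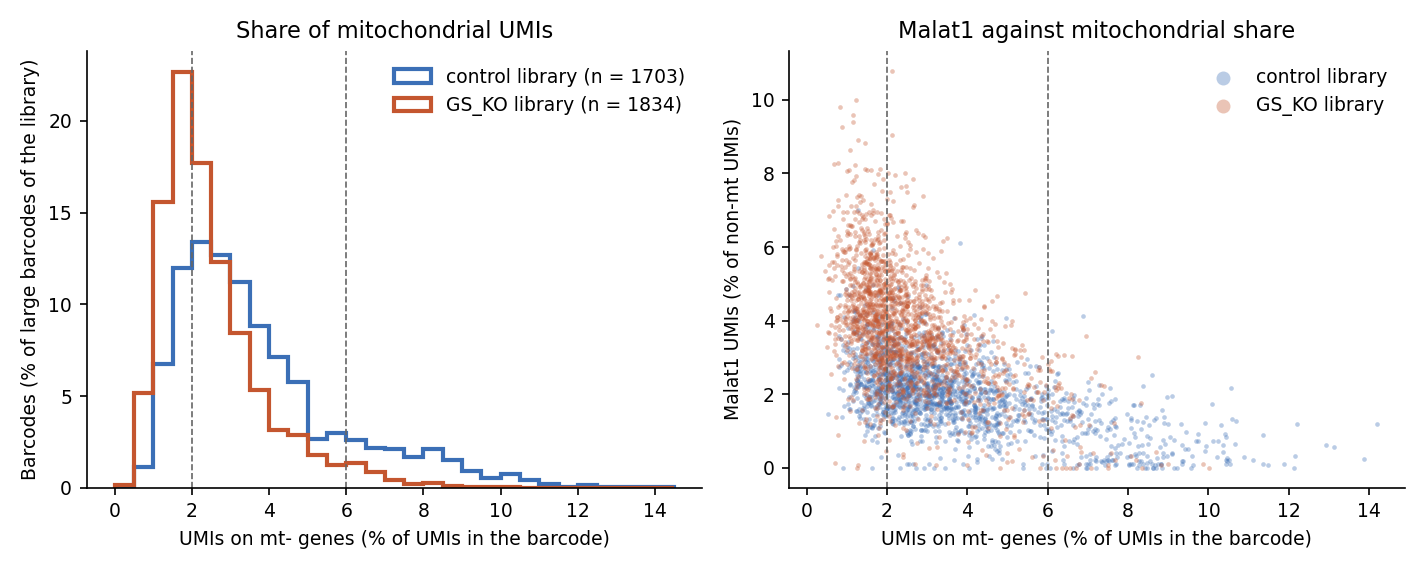
Left, the percent of large barcodes of each library (y axis) at each mitochondrial share (x axis, % of UMIs), with dashed lines at 2% and 6%. Right, each point is a large barcode, with Malat1 as % of non-mt UMIs on the y axis: barcodes above 6% lie low in Malat1 in both libraries, and the GS_KO library has more barcodes below 2%.

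Markers of hepatocytes made up most of the cell type signal in both sets, and other cell types weighed most in GS_KO cytoplasm-rich barcodes. The 15 hepatocyte markers summed to 110760 and 116040 CPM in control and GS_KO cytoplasm-rich barcodes, and to 68387 and 56804 in nucleus-like barcodes. The 17 markers of Kupffer cells and macrophages summed to 149 in control cytoplasm-rich, 194 in control nucleus-like, 3268 in GS_KO cytoplasm-rich and 1395 in GS_KO nucleus-like barcodes. Of the Kupffer and macrophage list, Marco, Cd163 and H2-Eb1 were at 0 in GS_KO cytoplasm-rich barcodes. At least 3 UMIs over the 99 markers of other cell types were found in 14.0% of control and 50.8% of GS_KO cytoplasm-rich barcodes, and in 8.26% and 22.2% of nucleus-like barcodes. The markers of stellate cells and fibroblasts summed to 591 and 746 in cytoplasm-rich and to 219 and 194 in nucleus-like barcodes. Those of B or plasma cells summed to 84.9 and 1044 in cytoplasm-rich and to 302 and 208 in nucleus-like barcodes. Neutrophil markers were at 0 in both control sets, and T or NK cell markers gave 0 and 1 UMIs there. In GS_KO cytoplasm-rich and nucleus-like barcodes, neutrophil markers gave 7 and 34 UMIs and T or NK cell markers 1 and 5. Some of the markers counted as other, such as Xbp1, are also made by hepatocytes. Doublets were not removed.

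In cytoplasm-rich barcodes genes for ribosomal proteins, nuclear-encoded respiratory chain subunits, translation factors and plasma proteins were higher, in both libraries. Malat1, long genes, transcription factors and splicing factors were higher in nucleus-like barcodes. Of 1469 genes with at least 100 UMIs over both control sets, 260 were at least 2-fold higher and 359 at least 2-fold lower in cytoplasm-rich barcodes, or 42.1% of those compared (17.7% higher, 24.4% lower). In the GS_KO library 275 of 2392 genes were higher and 766 lower, or 43.5% (11.5% higher, 32% lower). Since the same UMIs divided the barcodes, nothing is read from these totals. The median gene was lower in cytoplasm-rich barcodes, by a log2 ratio of -0.45 and -0.55. In the control library that sign differed between settings, which also changed the genes measured. With shares of at least 8% and at most 1% the median was 0.798 over 198 genes (86 higher and 36 lower). In barcodes of 1000 to under 1200 UMIs it was 0.277 over 434 genes (104 and 89). How far the sign follows from which genes reached the count minimum was not tested. With 2 counts added in place of 0.5, 303 GS_KO genes were higher and 440 lower (40.8% higher), with a median of -0.28. Measured from the main median of -0.45, 388 control genes were past 2-fold higher and 51 lower (88.4% higher among those past 2-fold, against 42.0% uncentred). Measured from the main median of -0.55, 470 GS_KO genes were higher and 319 lower (59.6% against 26.4%). Where the whole counting interval had to lie past 2-fold, 97 genes were higher and 51 lower in the control (10.1% of those compared) and 97 and 62 in the GS_KO barcodes (6.65%).

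The 2 libraries were made from different mice, and most genes lay on the same side in both. Of 1366 genes measured in both, 1200 (87.8%) lay on the same side of 0, 176 were past 2-fold higher in both and 201 past 2-fold lower in both. None was past 2-fold in opposite directions. The 176 genes were 78.9% of the 223 control genes and 78.6% of the 224 GS_KO genes higher among those measured in both, and the 201 genes were 59.1% of the 340 control and 49.0% of the 410 GS_KO genes lower. Across these genes Pearson's r was 0.81 and Spearman's rho 0.77, as a description only, since genes are not independent replicates.

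**Figure D2:**
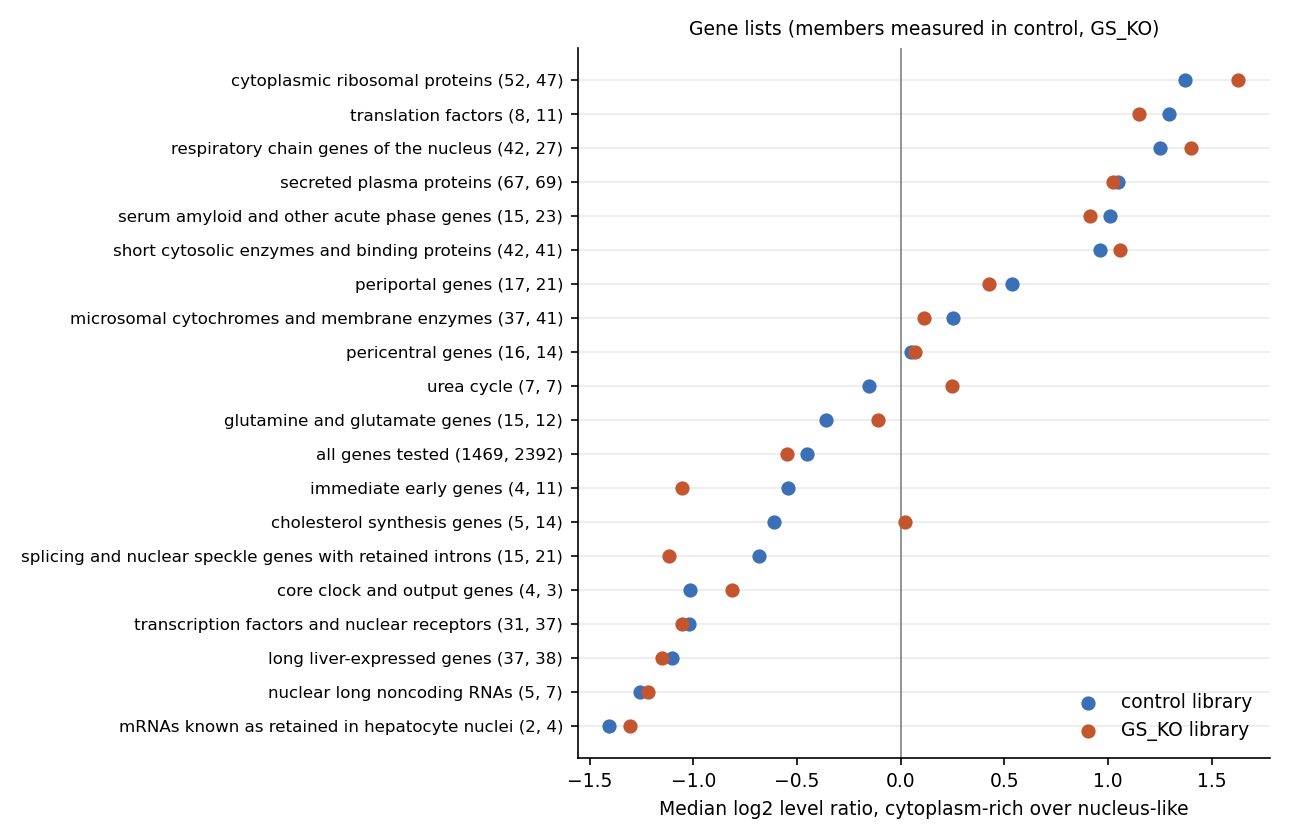
Median log2 ratio of level, cytoplasm-rich over nucleus-like (x axis), of each gene list (y axis) in the control and GS_KO libraries, with the number of members measured in each. Ribosomal proteins lie highest, at 1.37 and 1.63, and lists of nuclear RNAs and long genes lie below all genes, whose medians were -0.45 and -0.55.

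Ribosomal protein genes gave the most uniform difference. Their summed level was 24551 CPM in control cytoplasm-rich, 9564 in control nucleus-like, 23202 in GS_KO cytoplasm-rich and 7859 in GS_KO nucleus-like barcodes. Both cytoplasm-rich sums lay well above both nucleus-like sums. All 52 members measured in control and all 47 in GS_KO barcodes were higher in cytoplasm-rich barcodes, with median log2 ratios of 1.37 and 1.63. Past 2-fold higher were 51 and 46 of them, beside 17.7% and 11.5% of all genes. Rpl26, of the large ribosomal subunit, stood at 361, 93.8, 239 and 74.1 CPM in the same order, a log2 ratio of 1.94 (1.42 to 2.48) in control and 1.72 (0.82 to 2.47) in GS_KO barcodes. Rpsa, of the small subunit, was the lowest control member, at 0.95 (0.60 to 1.31). Ribosomal protein genes have many processed pseudogenes, so UMIs of single members are less certain than the sum. Translation factors were alike, with medians of 1.29 over 8 members and 1.15 over 11. Elongation factor Eef2 had a log2 ratio of 1.57 (1.21 to 1.95) in control and 1.15 (0.53 to 1.68) in GS_KO barcodes.

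Respiratory chain subunits encoded in the nucleus went with the mitochondrial transcripts, although the rule did not count them. Their summed level was 20361 and 13653 CPM in control and GS_KO cytoplasm-rich barcodes, and 8849 and 5636 in nucleus-like barcodes. The median log2 ratio was 1.25 over 42 control members, of which 38 were past 2-fold higher (17.7% of all genes were). It was 1.40 over 27 GS_KO members, of which 19 were (11.5% of all genes). Cox4i1, a subunit of cytochrome c oxidase, stood at 973 in control cytoplasm-rich, 352 in control nucleus-like, 597 in GS_KO cytoplasm-rich and 225 in GS_KO nucleus-like barcodes. Its log2 ratios were 1.46 (1.18 to 1.75) and 1.42 (0.89 to 1.89). The lowest were Ndufs4 and Sdha. Ndufs4, a complex I subunit gene spanning 100464 bases, had a ratio of -0.42 (-0.99 to 0.11) in the control library, and Sdha, of complex II, -0.42 (-2.20 to 0.71) in the GS_KO library, both reaching 0.

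Plasma proteins formed the largest cytoplasmic group by summed level. The 73 genes took 202427 and 245434 CPM of control and GS_KO cytoplasm-rich barcodes, and 98075 and 120674 of nucleus-like barcodes. In the control library 63 of 67 measured members were higher and 38 past 2-fold (median 1.05), beside 17.7% of all genes past 2-fold higher. In the GS_KO library the counts were 62 of 69 and 36 (median 1.02), beside 11.5% of all genes. Apoe, an apolipoprotein of lipid clearance (chr7:19696109-19699188), stood at 9074 in control cytoplasm-rich, 3000 in control nucleus-like, 9221 in GS_KO cytoplasm-rich and 3057 in GS_KO nucleus-like barcodes. Those levels divide by set and hardly differ by library, with log2 ratios of 1.60 (1.50 to 1.69) and 1.59 (1.47 to 1.72). Apoa2, of high-density lipoprotein, stood at 18042, 5982, 10474 and 3508, and its ratios of 1.59 (1.53 to 1.66) and 1.58 (1.46 to 1.69) were close to those of Apoe. Apoc3, Apoc1 and Apof, further apolipoproteins, had ratios between 1.45 and 1.71. Alb, the gene for serum albumin, was less unequal, at 0.99 (0.94 to 1.03) and 1.49 (1.43 to 1.55). Among members below 0 in the GS_KO library, Mug2, a protease inhibitor gene spanning 79205 bases, had a log2 ratio of -1.01 (-1.50 to -0.59).

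Short cytosolic enzymes followed, while membrane-bound enzymes were mixed. Gpx1, the selenoenzyme that reduces peroxides (chr9:108338903-108340343), stood at 4201 in control cytoplasm-rich, 1555 in control nucleus-like, 4849 in GS_KO cytoplasm-rich and 1593 in GS_KO nucleus-like barcodes. Its log2 ratios were 1.43 (1.30 to 1.57) and 1.61 (1.43 to 1.78). Urah, an enzyme of urate breakdown, stood at 478, 192, 388 and 108, with ratios of 1.31 (0.92 to 1.71) and 1.86 (1.17 to 2.46). Over 42 control and 41 GS_KO members of the list the medians were 0.96 and 1.06. In each library 21 were past 2-fold higher, beside 17.7% and 11.5% of all genes. Mup3, a major urinary protein, had ratios of 1.37 (1.27 to 1.47) and 1.40 (1.25 to 1.54), with the limit that the Mup genes are near-identical copies. Cytochromes P450 and other microsomal enzymes had medians of 0.25 over 37 and 0.11 over 41 members, where all genes had medians of -0.45 and -0.55. Cyp2e1, which oxidises ethanol and small solvents, was at 0.80 (0.71 to 0.88) and 0.35 (0.14 to 0.55), and Fmo5, a monooxygenase, at -1.04 (-1.20 to -0.88) and 0.05 (-0.40 to 0.45).

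Malat1 was higher in nucleus-like barcodes. Its level was 9340 CPM in control cytoplasm-rich, 25964 in control nucleus-like, 13653 in GS_KO cytoplasm-rich and 44446 in GS_KO nucleus-like barcodes. Both nucleus-like levels lay above both cytoplasm-rich levels, and the GS_KO library was higher within each set. The log2 ratios were -1.47 (-1.54 to -1.41) and -1.70 (-1.80 to -1.61). Without barcodes holding 3 or more UMIs of other cell types, which left 228 and 31 cytoplasm-rich barcodes, the GS_KO ratio was -1.38. Neat1, the scaffold of nuclear paraspeckles, had ratios of -1.18 (-1.45 to -0.93) and -1.16 (-1.77 to -0.65). Lncpint, a nuclear noncoding RNA, was at -1.26 (-1.62 to -0.92) and -0.96 (-1.89 to -0.25). All 5 control and 7 GS_KO members of the list were below 0. Messenger RNAs described elsewhere as retained in hepatocyte nuclei pointed the same way: Mlxipl, the carbohydrate-responsive transcription factor, had ratios of -1.32 (-1.76 to -0.93) and -1.10 (-1.96 to -0.43), and Nlrp6, an innate immune sensor, -1.49 (-2.29 to -0.81) and -1.67 (-5.05 to -0.11). The GS_KO value of Nlrp6 rests on 2 UMIs in cytoplasm-rich barcodes.

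Transcription factors and splicing factors were lower in cytoplasm-rich barcodes than the median gene. Of the transcription factors and nuclear receptors, 28 of 31 in control and 35 of 37 in GS_KO barcodes were below 0, with medians of -1.02 and -1.05. Past 2-fold lower were 17 and 20 of them, beside 24.4% and 32% of all genes. Measured from the median of all genes only 1 and 5 were, beside 51 of 1469 and 319 of 2392 genes in all. Thrb, a thyroid hormone receptor, stood at 609, 1499, 358 and 1120 CPM in control cytoplasm-rich, control nucleus-like, GS_KO cytoplasm-rich and GS_KO nucleus-like barcodes. Its ratios were -1.30 (-1.55 to -1.06) and -1.62 (-2.29 to -1.06). Hnf4a, a master regulator of hepatocyte identity, was at -0.80 (-1.27 to -0.37) and -1.84 (-4.35 to -0.49), the second with 3 UMIs in the smaller set. The exception in both libraries was Creb3l3, a liver factor made as a membrane protein, at 0.46 (0.03 to 0.88) and 0.78 (0.10 to 1.35). Splicing genes with retained introns had medians of -0.68 over 15 and -1.12 over 21 members. Ccnl2, a cyclin of nuclear speckles, was lowest in the control library at -1.45 (-2.30 to -0.73), and Hnrnpa2b1, an RNA-binding protein gene, was highest at 0.26 (-0.02 to 0.53).

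Very long genes were mostly higher in nucleus-like barcodes. Pid1, an insulin signalling adaptor gene of 327885 bases (chr1:84036296-84364180), stood at 747 in control cytoplasm-rich, 1949 in control nucleus-like, 1268 in GS_KO cytoplasm-rich and 3869 in GS_KO nucleus-like barcodes. Each cytoplasm-rich level was below the nucleus-like level of its own library, with ratios of -1.38 (-1.61 to -1.17) and -1.60 (-1.94 to -1.30). Immp2l, a mitochondrial peptidase subunit gene of 931499 bases, had ratios of -1.18 (-1.32 to -1.04) and -1.68 (-2.04 to -1.35). Wwox, a tumour suppressor gene of 913054 bases at a fragile site, was at -1.36 (-1.65 to -1.08) and -1.54 (-2.08 to -1.09). Esrrg, an orphan nuclear receptor gene of 606095 bases, was at -1.69 (-2.04 to -1.36) and -2.21 (-3.97 to -1.11). Abcc2, the canalicular exporter of bilirubin conjugates, was the shortest protein-coding gene among the 12 named as most nuclear, at 58549 bases. Its ratios were -1.23 (-1.42 to -1.05) and -1.43 (-1.84 to -1.07). Lyst, Sntg2, Rabgap1l, Cep85l and Klf12 complete the 12, and all of them span over 100 kb. In a list of long liver-expressed genes chosen by name, 36 of 37 control and 35 of 38 GS_KO members were below 0, with medians of -1.10 and -1.15. Past 2-fold lower were 26 and 24, beside 24.4% and 32% of all genes. Measured from the median of all genes 1 and 9 were, beside 51 of 1469 and 319 of 2392 genes in all.

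Sorting all measured genes by span, from the first to the last annotated base, gave a graded order. The median log2 ratio was 1.29 in control and 1.28 in GS_KO barcodes for genes under 5 kb, -0.09 and -0.23 for genes of 20 to 50 kb, and -1.09 and -1.14 for genes of 200 kb and over. In the control library 76.0% of 150 genes under 5 kb were past 2-fold higher, beside 17.7% of all genes. Of 211 genes of 200 kb and over, 130 were past 2-fold lower, beside 24.4% of all genes. Spearman's rho between span and ratio was -0.72 over 1469 control genes and -0.55 over 2392 GS_KO genes, with no p-value. The order was also seen within genes of like exon length. With summed exons under 4 kb, the control medians ran from 1.29 under 5 kb of span through 0.16 at 20 to 50 kb to -0.82 at 100 to 200 kb. It was also seen without the plasma protein, ribosomal and respiratory lists, with control medians of 1.16 under 5 kb and -1.09 at 200 kb and over. Plasma protein genes of 20 to 50 kb were nevertheless at 0.98 and 0.79, over 14 genes in each library, where all genes of that span were near 0. Long noncoding RNAs had medians of -0.93 over 19 and -1.29 over 49. The sources used here do not say whether intronic reads were counted.

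**Figure D3:**
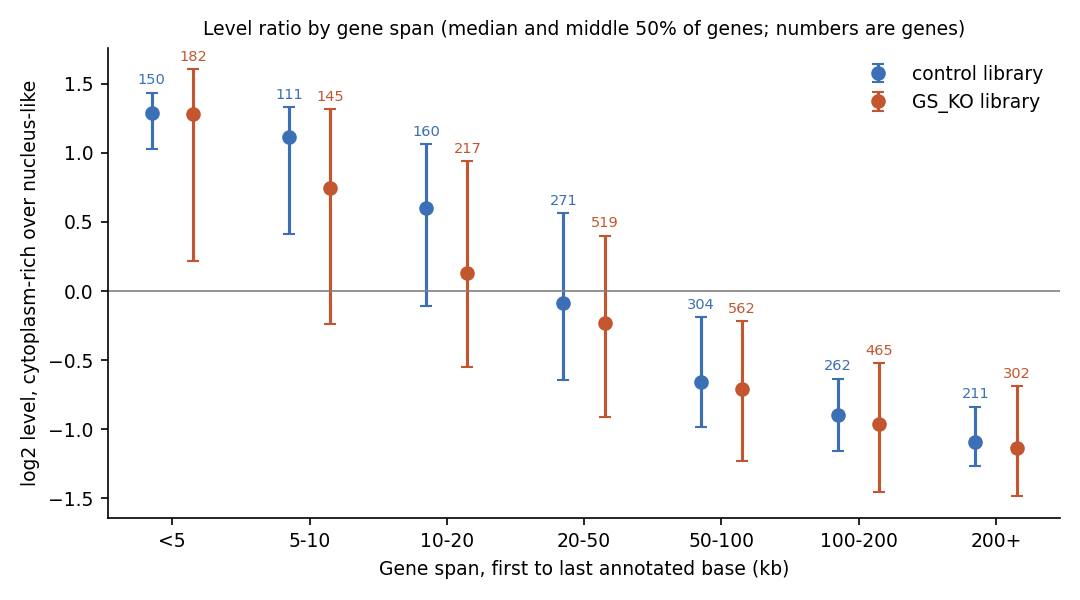
Log2 ratio of level, cytoplasm-rich over nucleus-like (y axis), by gene span in kb (x axis), with points at the median, bars over the middle 50% of genes and the number of genes above each bar. Medians go from 1.29 and 1.28 under 5 kb to -1.09 and -1.14 at 200 kb and over in the control and GS_KO libraries.

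A few genes went against their span, and these were named after their values were seen, except Lars2, Il31ra and Malat1. Camk1d, a calcium-dependent kinase gene of 421059 bases, stood at 1653 in control cytoplasm-rich, 744 in control nucleus-like, 2671 in GS_KO cytoplasm-rich and 746 in GS_KO nucleus-like barcodes. It was higher in both cytoplasm-rich sets, with ratios of 1.15 (0.95 to 1.35) and 1.84 (1.60 to 2.07). Cmss1, spanning 304865 bases, was at 1.20 (0.92 to 1.49) and 1.71 (1.25 to 2.13), and was the highest of the long gene list. Lars2, the mitochondrial leucyl-tRNA synthetase gene of 95740 bases (chr9:123366927-123462666), stood at 1819, 411, 895 and 249, with ratios of 2.14 (1.91 to 2.39) and 1.86 (1.42 to 2.25). Il31ra, a cytokine receptor gene of 74463 bases, was at 1.52 (1.18 to 1.88) and 2.01 (1.48 to 2.49). On the other side, Nr1i3, the xenobiotic receptor CAR, spans 6732 bases and was at -1.36 (-1.92 to -0.86) and -1.18 (-2.60 to -0.21). Jun and Igfbp1, an AP-1 subunit and a binding protein of insulin-like growth factors, both under 5 kb, were at -1.03 (-1.58 to -0.53) and -1.08 (-1.77 to -0.47) in the control library. In the GS_KO library they were at -1.21 (-1.92 to -0.63) and -0.97 (-1.77 to -0.33).

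The barcodes between the limits filled in the range. Malat1 was lower in steps, from 30343 CPM in control barcodes under 1% to 16927 at 4 to 6% and 6594 at 8% and over. In the GS_KO library it went from 47304 through 24189 to 6251. Under 8% the GS_KO level was above the control level in each bin, and at 8% and over the GS_KO bin held 10 barcodes. Ribosomal protein genes went from 9393 CPM at 1 to 2% to 27003 at 8% and over in the control, and from 8042 to 27523 in the GS_KO library. At 4 to 6% and above the libraries were close, with 16328 and 16409 CPM at 4 to 6%. The summed level of the long gene list stayed lower in the GS_KO library in every bin, at 58284 and 41309 CPM at 1 to 2% and 35486 and 21453 at 6 to 8%. Plasma protein genes stayed higher in it in every bin, at 99027 and 122557, and 183690 and 236791. On the long gene list, Cps1 and Dpyd were past 2-fold lower in both sets, while 6 of 21 measured members were above 0 in each. In nucleus-like barcodes all 333 genes of 200 kb and over had a median GS_KO over control log2 ratio of -0.03. The 3125 genes of any span had -0.07 there. In cytoplasm-rich barcodes the medians were -0.49 over 59 genes of that span and -0.21 over all 515. Markers of other cell types moved with the mitochondrial share in the GS_KO library, from 1524 CPM under 1% to 5884 at 6 to 8%, with 3932 (2796 to 5375) in the 10 barcodes at 8% and over. In control barcodes the same bins held 836, 1075 and 1206 CPM. Their part in these values was not tested.

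**Figure D4:**
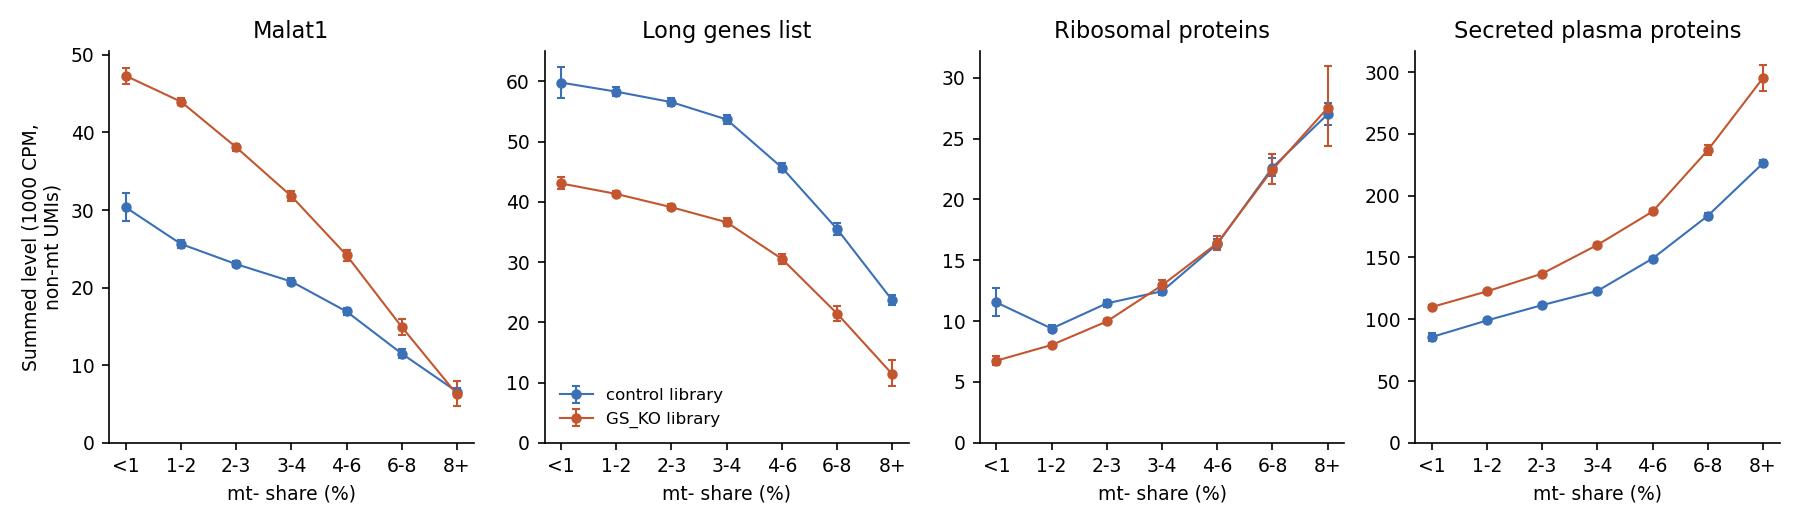
Summed level in 1000 CPM (y axes) of Malat1, long genes, ribosomal proteins and plasma proteins by mitochondrial share (x axes, %), with 95% counting intervals as bars. Malat1 and long genes go down and the other lists go up with mitochondrial share in both libraries, apart from control ribosomal proteins under 1% (19 barcodes).

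The large sets were also compared with barcodes of 300 to under 400 UMIs, which numbered 85248 and 72988. Their median mitochondrial share of 8.88% and 8.08% was above that of either large set. Their Malat1 level was 1856 and 1640 CPM, and 46 of 265 control (17.4%) and 14 of 63 GS_KO (22.2%) cytoplasm-rich barcodes lay at or below it. Only 2 control and 3 GS_KO nucleus-like barcodes did. Among genes of at least 1000 CPM in small barcodes, a comparison added after seeing the data, 3 of 124 control (2.42%) and 4 of 127 GS_KO genes (3.15%) were past 2-fold in cytoplasm-rich barcodes. In nucleus-like barcodes 98 (79.0%) and 99 (78.0%) were, of which 93 and 94 were lower than in small barcodes. The genes were chosen for a high level in small barcodes, which favours lower levels elsewhere. The median size of the log2 ratio was 0.43 and 0.37 in cytoplasm-rich and 1.54 and 1.67 in nucleus-like barcodes. Over all 9081 and 9120 genes measured, 31.3% and 41.1% were past 2-fold in cytoplasm-rich barcodes, and 55.9% and 57.4% of 9139 and 9430 in nucleus-like ones. For most genes the cytoplasm-rich sums hold few UMIs: with the whole interval past 2-fold, 754 and 309 genes were higher in cytoplasm-rich barcodes and none lower (8.3% and 3.39% of genes). In nucleus-like barcodes 1996 and 2637 were then higher and 600 and 825 lower (28.4% and 36.7%). Relative to the median gene, the share of higher genes among those past 2-fold was 68.5% and 58.9% for cytoplasm-rich barcodes (80.3% and 82.3% uncentred), and 51.0% and 51.5% for nucleus-like ones (61.9% and 64.6%).

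The difference between the mice was then taken within each set. Acute phase genes were higher in the GS_KO library in both sets, and Alas1, Cyp7a1, Por and Cyp2a5, described below, were lower in both. Drug-metabolising enzymes did not move one way, since Aox3, Cyp3a25 and the glutathione transferase gene Gstp1 were past 2-fold higher in both sets. In cytoplasm-rich barcodes 31 of 515 genes were at least 2-fold higher and 67 lower (19% past 2-fold, 6.02% higher and 13% lower), and relative to the median gene of -0.21 these counts were 42 and 44 (48.8% higher, against 31.6% uncentred). In nucleus-like barcodes 331 of 3125 genes were higher and 226 lower (17.8%, 10.6% and 7.23%). Of 513 genes measured in both sets, 23 were higher in both and 38 lower in both, which is 11.9% (4.48% and 7.41%), and none was past 2-fold in opposite directions. Among the 513, 97 genes were past 2-fold in cytoplasm-rich and 97 in nucleus-like barcodes, and the 61 were 62.9% of each. With the whole interval past 2-fold in both sets, 15 were higher and 19 lower. The sets share each mouse, so the agreement of sets says nothing about other mice. In barcodes with fewer than 3 UMIs of other cell types, 50 of the 61 were measured, all 50 lay on the same side in both sets and 43 were past 2-fold in both.

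**Figure D5:**
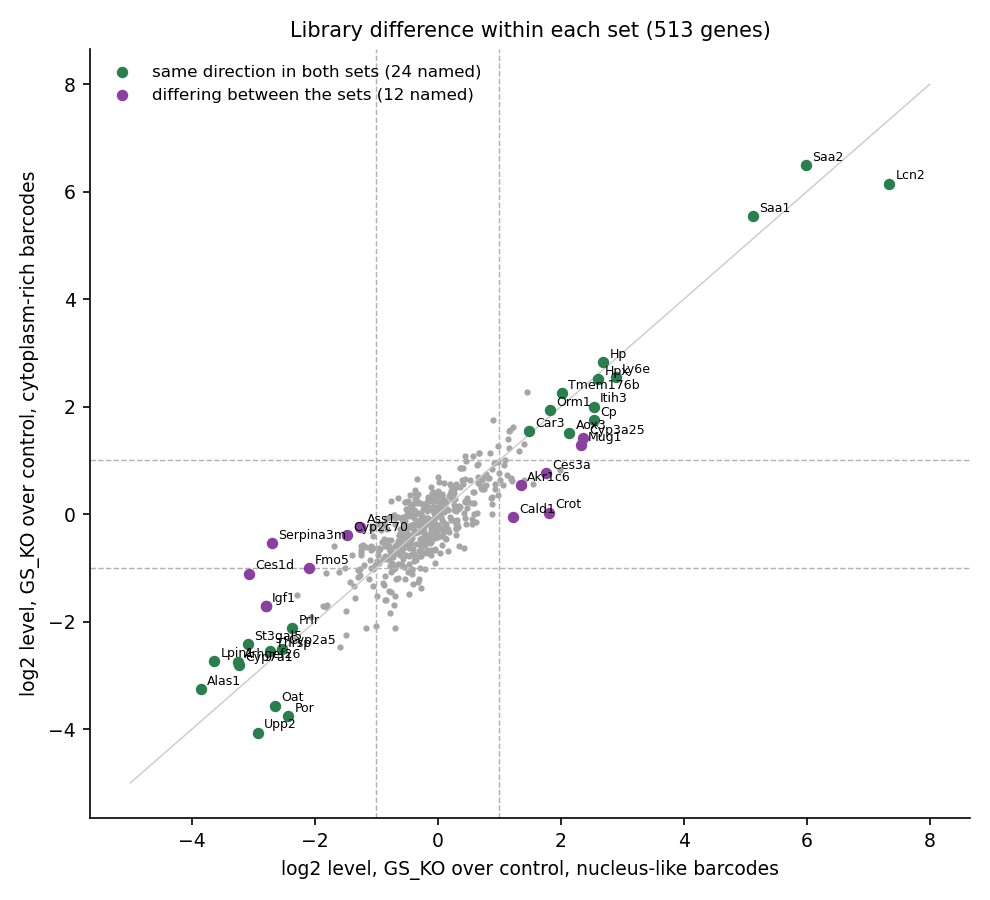
Log2 ratio of level, GS_KO over control, in nucleus-like (x axis) and cytoplasm-rich (y axis) barcodes, for 513 genes. Dashed lines mark 2-fold, the diagonal equal ratios, green the genes named as alike and purple those named as differing; Igf1 was named as both and is purple.

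The acute phase genes are induced in hepatocytes by inflammatory cytokines and encode plasma proteins. Saa2, a serum amyloid (chr7:46751790-46754313), stood at 14.2 CPM in control cytoplasm-rich, 6.25 in control nucleus-like, 1432 in GS_KO cytoplasm-rich and 461 in GS_KO nucleus-like barcodes. Both control levels rest on 4 UMIs or fewer, and both GS_KO levels were far higher, with log2 ratios of 6.50 (5.26 to 8.57) and 5.98 (4.65 to 8.49). Saa1, a near-identical copy, was at 5.54 (4.94 to 6.27) and 5.13 (4.47 to 5.98), and UMIs of the copies may be exchanged. Lcn2, a siderophore-binding lipocalin (chr2:32384633-32388252), stood at 24.8, 4.17, 1880 and 843, with ratios of 6.15 (5.16 to 7.59) and 7.34 (5.80 to 10.71). Its control nucleus-like level rests on 2 UMIs. Haptoglobin, Hp, which binds free hemoglobin, stood at 1632, 621, 11638 and 4007, with ratios of 2.83 (2.67 to 3.00) and 2.69 (2.52 to 2.86). Hemopexin, Hpx, which binds heme, was at 2.52 (2.35 to 2.69) and 2.61 (2.45 to 2.79). Orm1, an acid glycoprotein, was at 1.94 (1.62 to 2.27) and 1.83 (1.55 to 2.13). The same genes were higher in small barcodes, at 6.65 for Saa2, 8.19 for Lcn2 and 2.80 for Hp. Of the 16 acute phase genes measured in both sets 14 were above 0 in each, with medians of 1.34 and 1.37, where all 513 genes had medians of -0.21 and -0.24. Metallothionein Mt1, also on that list, went the other way, at -1.80 (-2.42 to -1.28) and -1.49 (-1.74 to -1.26).

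Other genes higher in both sets were of mixed roles. Ly6e, an interferon-inducible surface protein, had ratios of 2.56 (1.99 to 3.15) and 2.89 (2.31 to 3.59). Itih3, of the inter-alpha-trypsin inhibitors, was at 2.00 (1.52 to 2.48) and 2.54 (2.23 to 2.87). Ceruloplasmin, Cp, the copper-carrying oxidase, stood at 1108 and 765 CPM in the control sets and 3745 and 4432 in the GS_KO sets, with ratios of 1.76 (1.51 to 2.00) and 2.53 (2.38 to 2.69). Car3, a carbonic anhydrase, was at 1.54 (1.40 to 1.69) and 1.49 (1.37 to 1.60). Aox3, an aldehyde oxidase, was at 1.51 (1.18 to 1.83) and 2.14 (1.96 to 2.32), and lower than either in small barcodes, at 0.61. Tmem176b, a membrane protein that myeloid cells also make, was at 2.25 (1.77 to 2.75) and 2.02 (1.60 to 2.50).

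Among genes lower in both sets, Alas1, the rate-limiting enzyme of heme synthesis, stood at 2215 CPM in control cytoplasm-rich, 2998 in control nucleus-like, 224 in GS_KO cytoplasm-rich and 208 in GS_KO nucleus-like barcodes. Its ratios were -3.26 (-4.15 to -2.57) and -3.85 (-4.06 to -3.65). Por, the reductase that supplies electrons to the cytochromes P450, was at -3.76 (-7.13 to -2.19) and -2.44 (-2.70 to -2.18), the first from 2 GS_KO UMIs. Cyp7a1, which starts the main route from cholesterol to bile acids, was at -2.80 (-4.23 to -1.83) and -3.23 (-3.49 to -2.99). Cyp2a5, which oxidises coumarin, was at -2.50 (-3.53 to -1.73) and -2.53 (-2.91 to -2.17). Upp2, a uridine phosphorylase, stood at 1869, 3751, 104 and 494, with ratios of -4.06 (-5.48 to -3.11) and -2.92 (-3.06 to -2.79). Lpin1 and Thrsp, of fat synthesis, were at -2.73 and -2.54 in cytoplasm-rich and -3.63 and -2.73 in nucleus-like barcodes. Oat, which makes glutamate from ornithine next to the central vein, was at -3.56 (-6.94 to -1.99) and -2.65 (-3.28 to -2.08), again with 2 GS_KO UMIs in the smaller set. St3gal5, which starts ganglioside synthesis, the prolactin receptor Prlr and the guanine nucleotide exchange factor Arhgef26 were between -2.12 and -3.25 in both sets. Of 10 pericentral genes measured in both sets, 10 were below 0 in cytoplasm-rich and 9 in nucleus-like barcodes, with medians of -1.08 and -0.89.

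The targeted gene Glul (chr1:153899944-153909723, plus strand) was thinly counted in both sets. It had 43 UMIs in control cytoplasm-rich, 62 in control nucleus-like, 1 in GS_KO cytoplasm-rich and 41 in GS_KO nucleus-like barcodes, or 152, 129, 14.9 and 35.8 CPM. The GS_KO levels were below both control levels, with log2 ratios of -2.78 (-8.69 to -0.80) in cytoplasm-rich and -1.85 (-2.46 to -1.26) in nucleus-like barcodes. The cytoplasm-rich interval holds the nucleus-like one, so a difference between the sets was not detectable at this depth. Reads outside the floxed part can still be counted, and the sources used here do not say which part that is.

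Some library differences had another size in the 2 sets, and these are described without a test. Serpina3m, a protease inhibitor, stood at 379 in control cytoplasm-rich, 436 in control nucleus-like, 254 in GS_KO cytoplasm-rich and 67.2 in GS_KO nucleus-like barcodes. The GS_KO nucleus-like level stood apart from the other three, so the ratio was -0.54 (-1.41 to 0.17) in cytoplasm-rich and -2.69 (-3.09 to -2.31) in nucleus-like barcodes, a difference of 2.15 (1.33 to 2.97). In small barcodes it was -0.34. Ces1d, a carboxylesterase, was at -1.11 (-2.06 to -0.35) and -3.08 (-3.45 to -2.73), with -0.46 in small barcodes. Ass1, of the urea cycle, stood at 3107, 2152, 2626 and 898, with ratios of -0.24 (-0.48 to -0.01) and -1.26 (-1.39 to -1.13). Cyp2c70, which makes muricholic acids, was at -0.39 and -1.48, Fmo5 at -1.01 and -2.10, and Igf1, the growth hormone-dependent growth factor, at -1.71 and -2.80. For these 6 genes the value in small barcodes (between -0.71 and 0.01) lay nearer 0 than the nucleus-like value.

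The opposite order held for 6 genes whose ratio was lower in cytoplasm-rich barcodes. Crot, the peroxisomal carnitine octanoyltransferase, stood at 386 in control cytoplasm-rich, 152 in control nucleus-like, 388 in GS_KO cytoplasm-rich and 539 in GS_KO nucleus-like barcodes. The cytoplasm-rich levels hardly differed between libraries, at a ratio of 0.03 (-0.67 to 0.64), and the nucleus-like ratio was 1.82 (1.47 to 2.19). Mug1, a murinoglobulin of plasma, stood at 3560, 2137, 8714 and 10764, with ratios of 1.29 (1.14 to 1.44) and 2.33 (2.24 to 2.43). Cyp3a25, a cytochrome P450, stood at 1044, 1282, 2790 and 6555, with ratios of 1.42 (1.15 to 1.69) and 2.35 (2.24 to 2.47), against 0.22 in small barcodes. Cald1, an actin-binding protein, was at -0.05 (-0.61 to 0.44) and 1.22 (0.97 to 1.49). Ces3a, a carboxylesterase, was at 0.77 and 1.76, and Akr1c6, a hydroxysteroid dehydrogenase, at 0.54 and 1.35. Mug1 and the Ces and Cyp genes have close relatives, and how their shared reads were assigned is not known here.

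Gene groups divided on whether their library difference depended on the set. All 513 genes measured in both sets had medians of -0.21 in cytoplasm-rich and -0.24 in nucleus-like barcodes, so most genes lay below 0. Ribosomal protein genes were level in cytoplasm-rich barcodes, with a median of 0.05 over 42 members, above that of all genes. In nucleus-like barcodes their median of -0.28 was near that of all genes, with 36 of the 42 below 0. Over all large barcodes the same 42 had a median of -0.42 with none above 0, beyond either set, where all 513 genes had -0.35. The sets made up different shares of the 2 libraries. In barcodes with fewer than 3 UMIs of other cell types 26 members were measured in cytoplasm-rich and 46 in nucleus-like barcodes, with medians of -0.32 and -0.46. The same 26 and 46 members had medians of 0.04 and -0.25 with all barcodes of the sets. Respiratory chain genes were lower in GS_KO in each set, with medians of -0.62 and -0.71 over 22 members and 20 and 22 below 0. Urea cycle genes had medians of -0.47 and -1.31 over 6 members: Cps1, the entry enzyme, stood at 5815, 11125, 2716 and 3153, with ratios of -1.09 (-1.33 to -0.88) and -1.82 (-1.88 to -1.76), and Otc was at 0.38 (-0.09 to 0.81) and 0.20 (-0.03 to 0.43). Glutamine and glutamate genes were below 0 in 7 of 8 and 8 of 8, with medians of -0.61 and -0.84. Malat1 was higher in GS_KO in each set, at 0.55 (0.44 to 0.66) and 0.78 (0.75 to 0.80), and at -0.18 in small barcodes. Long liver-expressed genes had medians of -0.42 and -0.22 over 21 members, the second near the -0.24 of all 513 genes. Without barcodes holding 3 or more UMIs of other cell types their cytoplasm-rich median was 0.06 over 18 members. The same 18 had -0.45 with all barcodes of the set.

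Several inducible groups were compared gene by gene in nucleus-like barcodes only, since almost no member reached the count minimum in the small GS_KO cytoplasm-rich sum. Their summed levels were higher in GS_KO in both sets. The NF-kB pathway list summed to 425 (352 to 508) CPM in control and 1746 (1444 to 2092) in GS_KO cytoplasm-rich barcodes, and to 471 and 2515 in nucleus-like ones. Immediate early genes summed to 1154 and 1970 in cytoplasm-rich and to 1426 and 3955 in nucleus-like barcodes, and cholesterol synthesis genes to 1879 and 2716, and 1597 and 2858. Of 27 NF-kB pathway genes, 8 reached the minimum in nucleus-like barcodes. All 8 were past 2-fold higher in GS_KO, with a median of 2.49, while 10.6% of all genes compared were higher. The minimum is summed over both libraries, so a gene can pass it through the library where it is high. For that reason the counts of members past 2-fold in these groups are a description only. Ikbke, an inflammatory kinase, had 0 UMIs in control and 191 in GS_KO nucleus-like barcodes, and 3 and 1 in cytoplasm-rich ones. Of 11 immediate early genes 9 were past 2-fold higher, with a median of 1.42. Btg2, an antiproliferative gene among them, had a ratio of 3.88 (3.21 to 4.74) in nucleus-like barcodes. Of 14 cholesterol synthesis genes 7 were past 2-fold higher, with a median of 1.08, led by Hmgcs1 at 2.62 (2.02 to 3.37), the synthase before the statin target. Chka, a choline kinase of phospholipid synthesis, stood at 42.5 and 52.1 CPM in the control sets and 388 and 1124 in the GS_KO sets, a nucleus-like ratio of 4.40 (3.86 to 5.06). Tox, a transcription factor, had 71 UMIs in control and 0 in GS_KO cytoplasm-rich barcodes, and 396 and 86 in nucleus-like ones, where its ratio was -3.45 (-3.81 to -3.12). Cux2, a transcription factor higher in female liver, had 42 and 153 UMIs in the control sets and 0 in both GS_KO sets. These values rest on 1 mouse of each kind, and whether the mice differed in sex was not examined here.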

How the data were processed

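The authors deposited raw UMI counts per gene and barcode for 32285 genes, with mm10 as the genome per the submitters' processing notes and Cell Ranger 8.0.0 as the counting software per the file headers. Whether introns were counted was not given in the sources used here. From these counts, barcodes of at least 1000 UMIs were divided by mt- share (at least 6%, at most 2%) and summed per set and library. Levels are counts per 1000000 non-mt UMIs (CPM). Log2 ratios add 0.5 counts to each sum, and their 95% intervals are conditional Poisson. Genes needed 100 UMIs over the 2 sums, and those at least 2-fold apart are called past 2-fold. The mt- genes were left out, since the rule used them. Small barcodes held 300 to under 400 UMIs. For genes per barcode, each barcode was thinned to 1000 UMIs. Doublets were not removed. Gene spans came from GENCODE M21 (GRCm38), in which 32235 of 32285 IDs matched. Python 3.11.15, numpy 2.4.6, pandas 2.3.3 and scipy 1.17.1 were used, and the scripts were tested on simulated data.

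The labels gave 1 mouse per group, so no test between groups was made. Named genes were the 12 each way whose interval bound lay farthest from 0 in both libraries (cytoplasm-rich over nucleus-like) or in both sets (GS_KO over control). To these were added the 6 each way whose GS_KO over control ratios differed most between the sets. Clone names, immunoglobulin genes, Y-linked genes, Xist, mt- genes and symbols listed more than once were left out of these rankings. Members of 20 gene lists and 9 marker lists served as examples (Hnf4a, Cox4i1 and Lncpint chosen with their values seen), and 2 of their genes are not in the tables. Members and lists were chosen with earlier results of these data known.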

Additional observations from a re-analysis of the deposited data

Results flagged for a closer look

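Of the 12 genes named as differing between the sets, 10 had cytoplasm-rich over nucleus-like ratios of opposite sign in the 2 libraries. None of these differences was tested. Each is the same value as that gene's difference between the sets, so it is not a further result. Over all genes measured in both libraries, 1200 of 1366 lay on the same side of 0. The difference, GS_KO minus control on the log2 scale, was 2.15 for Serpina3m (-0.20 and 1.95), 1.97 for Ces1d (-0.45 and 1.52), 1.09 for Cyp2c70 (-0.65 and 0.44), 1.09 for Fmo5 (-1.04 and 0.05) and 1.09 for Igf1 (-0.43 and 0.67). It was -1.79 for Crot (1.34 and -0.45), -1.04 for Mug1 (0.74 and -0.30), -1.27 for Cald1 (1.02 and -0.25), -0.986 for Ces3a (0.53 and -0.46) and -0.813 for Akr1c6 (0.52 and -0.29). The GS_KO ratio of Serpina3m rests on 17 and 77 UMIs.

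List medians differed in sign without a test. Between libraries, the cytoplasm-rich over nucleus-like median of urea cycle genes differed by 0.399 (-0.15 in control, 0.25 in GS_KO) and that of cholesterol synthesis genes by 0.631 (-0.61 and 0.02, over 5 and 14 members). Over the 5 cholesterol synthesis genes measured in both libraries the medians were -0.61 and -1.36, and the signs did not differ. Between sets, the GS_KO over control value, cytoplasm-rich against nucleus-like, was opposite for Cald1 (-0.05 and 1.22, a difference of -1.27). It was also opposite for the medians of splicing genes (-0.20 over 5 and 0.25 over 23 members, 0.446 apart), periportal genes (-0.29 over 12 and 0.08 over 23, 0.378 apart) and ribosomal protein genes (0.05 over 42 and -0.28 over 56, a difference of -0.330). Over the 12 periportal genes measured in both sets, the nucleus-like median was -0.43 and the signs did not differ.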

How the results depend on the processing

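Counts of genes past 2-fold depended on the settings, and the cause was not tested. They are given in this order: cytoplasm-rich over nucleus-like in control (619) and GS_KO (1041), then GS_KO over control in cytoplasm-rich (98), nucleus-like (557) and both sets (61). Limits of at least 8% and at most 1% left 119 and 19 control and 10 and 99 GS_KO barcodes and gave 122, 154, 40, 81 and 13. Barcodes of 1000 to under 1200 UMIs gave 193, 288, 57, 199 and 40. A count minimum of 400 gave 143, 255, 23, 168 and 17, and a minimum of 50 gave 1076, 1729, 237, 899 and 123. The whole interval past 2-fold gave 148, 159, 46, 299 and 34. At least 1300 UMIs gave 181 and 547, then 22 in cytoplasm-rich and 12 in both sets. At least 500 UMIs gave 3005 and 3137, then 710 and 307. The upper and lower 20% of mitochondrial share gave 180 for the GS_KO library, 282 in cytoplasm-rich and 171 in both sets, and limits of 5% and 3% gave 154 and 113 for the last 2. Fewer than 3 UMIs of other cell types gave 638 for the GS_KO library.

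Against small barcodes, cytoplasm-rich genes numbered 2839 and 3746 and nucleus-like genes 5106 and 5416. A minimum of 400 gave 1190 and 1692, and 3206 and 3208. The whole interval gave 754 and 309, and 2596 and 3462. Small barcodes of 200 to 300 UMIs gave 1384 for control cytoplasm-rich barcodes.

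Malat1 stayed lower in cytoplasm-rich barcodes in every setting run. In control (-1.47) it was -1.61 at 1000 to under 1200 UMIs, -1.57 over all UMIs, -1.07 at 1300 UMIs, -2.36 at 500 UMIs, -1.02 relative to the median gene, -1.27 with 20%, -1.13 at 5% and 3%, and -2.20 at 8% and 1%. In GS_KO (-1.70) it was -1.83 at 1300 UMIs, -3.04 at 500 UMIs, -1.15 relative to the median gene, -1.38 with few UMIs of other cell types, -0.90 with 20%, -1.27 at 5% and 3%, and -2.91 at 8% and 1%.

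In the control library the median of the genes measured, cytoplasm-rich over nucleus-like, was -0.45 over 1469 genes. It was 0.798 over 198 genes at 8% and 1%, and 0.277 over 434 genes at 1000 to under 1200 UMIs. With 2 counts added, 303 GS_KO genes were higher and 440 lower. For genes past 2-fold in the main setting, and for the list medians named here, signs turned in the GS_KO library where few cytoplasm-rich barcodes were left. With 10 of them, at 8% and 1%, Atp5o was -0.756, Hnf4a 0.132, Srsf5 0.234, Stard4 0.829 and the periportal median -0.186. With 6 of them, at 1300 UMIs, Ccnl2 was 0.913, Cox4i1 -0.159, Luc7l3 0.734, Mlxipl 0.661, Mug2 0.196, Nr1i3 0.199 and the median of retained mRNAs 0.516. Of all values for named genes under alternatives, 3332 stayed within their interval, 789 moved further and 10 were counted as changing sign. A change of sign was counted only for genes at least 2-fold apart in the main setting. Sign changes of genes under 2-fold fall among the other values. Of the alternatives, 4 were added after seeing the data. No paired analysis was possible because each group holds 1 mouse and no test was made. Depth limits the GS_KO cytoplasm-rich set most, with 67020 UMIs.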
